A study of Mus musculus with 54 samples.

Results

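Ovaries of F2 female mice whose father and mother both came from a group that drank a cocktail of pharmaceuticals at its higher concentration (dose 2) were compared with ovaries of F2 females of a control cross. The comparison holds 6 of the 54 libraries of the series, 3 for each cross, chosen by the parents' groups in the sample labels and not by any measured value. The cocktail contained ibuprofen (IBU) and diclofenac (DCF), which are anti-inflammatory drugs that block prostaglandin synthesis, the ibuprofen metabolite 2-hydroxyibuprofen (2hIBU), and 17a ethinyl-estradiol (EE2), the synthetic estrogen of contraceptive pills. Dose 2 in the drinking water was 113 ng/L IBU, 225 ng/L 2hIBU, 112 ng/L DCF and 45 ng/L EE2, and the control water held 0.001% ethanol. The water was given to pregnant mice and their offspring from 8.5 days post coitum. In the cross called biparental here, a dose 2 male was mated with a dose 2 female, and in the control cross a control male with a control female. Each of the maternal and paternal dose 2 crosses, used for side-by-side values, had 1 parent from the dose 2 group and the other parent from the control group. Maternal and paternal dose 1 crosses, with 1 parent from a lower dose group, entered the tests too and helped set the spread between libraries. Dose 1 was 11.3 ng/L IBU, 90 ng/L 2hIBU, 22.5 ng/L DCF and 2.25 ng/L EE2. The labels give the treatment of every F2 animal as none, and all ovaries in the series were taken at 30 days post partum. The labels do not say whether the 3 libraries of a cross came from separate animals or litters, so p-values measure the spread between these samples, and a litter effect cannot be told apart from an effect of the cross.

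At this age the mouse ovary is prepubertal: it holds many growing follicles and no corpora lutea formed by a natural estrous cycle. Granulosa cells surround the oocyte, make inhibin and anti-Müllerian hormone, and convert androgen to estrogen, while theca and interstitial cells take up or make cholesterol and turn it into androgen. Cholesterol genes are controlled together by sterol-sensing transcription factors of the SREBP family, which are switched on when a cell's sterol level falls, and the oocyte stores transcripts that the early embryo later uses.

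RNA was sequenced from stranded mRNA libraries, and the values used here are read counts per gene, scaled to a common library total (CPM) with a correction for library composition. The control libraries A, B and C held 54.8, 53.0 and 84.7 M counts (M for mega), and the biparental libraries 41.1, 40.7 and 42.4 M, so every control library was deeper than every biparental one; the part of depth in the results was not tested. Both crosses expressed defining genes of the ovary in every library. Inha, the inhibin alpha subunit of granulosa cells, was at 4961, 5955 and 5032 CPM in the control libraries and at 4767, 5422 and 5691 CPM in the biparental ones. Zp3, a protein of the oocyte's zona pellucida, was at 73.6, 154 and 105 and 142, 151 and 108 CPM. Biparental library C stood apart: 346 of 17400 genes were at 1 CPM or more there and over 2 times as high as in each of the other 17 F2 ovary libraries, against 0 to 8 genes for each of those libraries. For this reason some results, mainly list medians and log2 changes of single genes, are also given without it. The F2 list values were not recalculated without any other library, so how far they rest on a single control library was not tested.

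No gene passed the test between the biparental and the control cross. Of 17400 genes tested with edgeR's quasi-likelihood test, 0 (0%) were below an adjusted p of 0.05, and the lowest adjusted p was 0.4. At an unadjusted p below 0.05 there were 912 genes with higher levels (5.24%) and 654 with lower levels (3.76%) in the biparental cross, 1566 in all where 870 would be given by a uniform spread of p-values. DESeq2, an alternative count test, called 23 genes (0.132%), 17 higher and 6 lower. Of these 23, 18 had separate ranges in the 2 crosses. The other 5, Pou2af1, Mzb1, Saa3, Prap1 and Jchain, had overlapping ranges and were far higher in biparental library C than in A and B. Counts in biparental A, B and C were 12, 1 and 366 for Pou2af1 and 13, 12 and 7002 for Prap1. The edgeR log2 change of Prap1 was 7.21, and -0.30 without C. The DESeq2 calls and the shares of all genes given here were not recalculated without library C. Ranges that did not overlap were found for 1382 genes with all 3 biparental libraries above all 3 controls (7.94%) and for 1323 with all 3 below (7.6%). Log2 changes were above 0 for 54.8% of genes and below 0 for 45.2%, with a median of 0.03 over all genes, and these shares are the background against which the lists below are read. An exact permutation test of 3 libraries against 3 cannot give a p below 0.1, so none was used for single genes.

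The genes with the lowest p in each direction are described first, since no gene passed. Among those with higher levels Aqp8, a water channel, had the lowest p. It was at 1.87, 2.24 and 2.87 CPM in the control libraries A, B and C and at 7.63, 6.23 and 19.3 CPM in the biparental libraries. The lowest biparental library was over 2 times the highest control, and library C was the highest of all. The log2 change was 2.25 ± 0.41 (± standard error; edgeR adjusted p = 0.4, DESeq2 adjusted p = 0.00021), and 1.57 without biparental C. Arhgap8, which encodes a GTPase-activating protein, was at 0.780, 0.899 and 0.870 CPM in controls and 3.19, 4.24 and 6.66 CPM in biparental libraries, again without overlap, from counts of 43, 47 and 74 and of 133, 175 and 284. Its log2 change was 2.46 ± 0.57 (edgeR adjusted p = 0.462). Wfdc2, a secreted protein of reproductive tract epithelium, was at 0.889, 0.708 and 0.788 CPM against 1.46, 1.48 and 4.90 CPM. Library C was again the highest, and the log2 change of 1.71 ± 0.40 (edgeR adjusted p = 0.462) was 0.89 without it.

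Rasa4 and Ripor3, also among the 6 higher genes, were more even between libraries. Rasa4, a GTPase-activating protein for Ras, was at 28.2, 26.3 and 27.1 CPM in controls and 36.3, 35.9 and 48.0 CPM in biparental libraries, a log2 change of 0.56 ± 0.12 (edgeR adjusted p = 0.462). Ripor3 was at 10.3, 8.90 and 9.04 against 17.96, 21.1 and 15.2 CPM (log2 change 0.94 ± 0.20, edgeR adjusted p = 0.462). Neither gene's ranges overlapped. The sixth gene, Ly6i, of the Ly6 family of membrane-anchored proteins, had overlapping ranges: its counts were 4, 5 and 26 in controls and 22, 4 and 1336 in the biparental libraries, so its level rested on library C.

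The 6 genes with the lowest p and lower levels included 2 genes of cholesterol handling and a protease of ovulation. Adamts1, a matrix protease that the ovulatory signal induces in granulosa cells, had the lowest p of all genes. It was at 54.9, 70.3 and 57.2 CPM in the control libraries and at 33.6, 33.1 and 39.7 CPM in the biparental ones, so all 3 biparental libraries were below every control. Its mean was 35.5 ± 3.67 CPM (SD, n = 3) against 60.8 ± 8.33, a log2 change of -0.78 ± 0.13 (edgeR adjusted p = 0.4, DESeq2 adjusted p = 0.000371). Scarb1, the receptor through which steroid-making cells take cholesterol from high-density lipoprotein, was at 634, 534 and 527 CPM in controls and 348, 320.1 and 397 CPM in biparental libraries, with no overlap. Its log2 change was -0.67 ± 0.16 (edgeR adjusted p = 0.462, DESeq2 adjusted p = 0.0426). Dhcr7, which catalyses the last step of one branch of cholesterol synthesis, was at 104, 85.9 and 105 against 73.2, 67.0 and 70.9 CPM (log2 change -0.48 ± 0.11, edgeR adjusted p = 0.462).

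The other genes of this group serve the secretory pathway, heme synthesis and transport. Sec23a, a coat protein of vesicles leaving the endoplasmic reticulum, was at 117, 97.7 and 105 CPM in controls and 77.6, 63.7 and 64.1 CPM in biparental libraries (log2 change -0.64 ± 0.13, edgeR adjusted p = 0.462). Cpox, an enzyme of heme synthesis, was at 43.0, 47.0 and 37.6 against 29.3, 23.9 and 28.6 CPM (log2 change -0.64 ± 0.14). Mfsd14a, a membrane protein of the major facilitator superfamily, was at 74.4, 70.5 and 68.0 against 58.9, 46.5 and 45.0 CPM (log2 change -0.50 ± 0.12). In all 6 lower genes the ranges did not overlap, and DESeq2 called these 6 and no other lower gene.

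Cholesterol genes mostly had lower levels in the biparental cross, although none passed the test. Of the list's 31 genes, all tested, 0 passed, 26 had a log2 change below 0 (45.2% of all genes) and 5 above. All 3 biparental libraries were below all 3 controls for 10 genes (7.6% of all genes), and no gene had all of them above. The median log2 change of the list was -0.23 beside 0.03 over all genes, and -0.18 without biparental C. Summed over the list, the control libraries held (lowest, median and highest) 3484, 4079.9 and 4264 CPM and the biparental ones 3013, 3042 and 3159 CPM, with no overlap. In whole-ovary RNA, fewer cells of a type and less RNA per cell cannot be told apart, here and in the results below.

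Of these 10 genes, those named here serve uptake, transport, synthesis and storage. Scarb1 and Dhcr7, given above, belong to the list. Soat1, which esterifies cholesterol for storage in lipid droplets, was at 809, 584 and 714 CPM against 568, 518 and 471 CPM (log2 change -0.44 ± 0.13; unadjusted p = 0.0037 and adjusted p = 0.462, edgeR). Its highest biparental library lay below its lowest control. Stard4, a carrier of cholesterol between membranes, was at 44.7, 33.2 and 47.8 CPM against 31.4, 25.5 and 27.2 CPM (log2 change -0.58 ± 0.22). Among enzymes of the later pathway, Sc5d was at 62.2, 44.5 and 47.6 against 38.9, 28.2 and 33.3 CPM (log2 change -0.62 ± 0.19). Hsd17b7, whose product acts on sterol intermediates and also on estrone, was at 39.2, 29.9 and 32.6 against 25.3, 23.9 and 19.5 CPM (log2 change -0.57 ± 0.16). Neither gene's ranges overlapped, and library C was the lowest for Hsd17b7 and between A and B for Sc5d. Msmo1, which acts on methyl sterols, was at 153, 152 and 174 CPM in controls and 136, 108 and 102 CPM in biparental libraries (log2 change -0.47 ± 0.17). Sqle, which acts on squalene, had a log2 change of -0.39 ± 0.14, and its control B at 60.84 CPM was just above biparental A at 60.59 CPM.

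Some members of the list did not separate. Cyp51, a demethylase of lanosterol, was at 88.9, 77.9 and 98.7 CPM in controls and 83.1, 61.5 and 54.7 CPM in biparental libraries, where library A reached the control range. Insig1, a sterol sensor that restrains SREBP, was at 96.8, 92.9 and 118 against 94.8, 86.3 and 79.2 CPM (log2 change -0.24 ± 0.12). Abca1, a cholesterol exporter, had the lowest log2 change of the list (-0.83 ± 0.34), but of its control values of 625, 209 and 346 CPM the second lay among the biparental values of 225, 231 and 208 CPM, and control A was the highest library.

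The same list lay below the same controls when only one parent came from the dose 2 group. Its median log2 change against the control cross was -0.29 in the maternal dose 2 cross (28 of 31 genes below 0) and -0.37 in the paternal dose 2 cross (29 of 31). These 3 comparisons share the 3 control libraries, so their likeness is not independent. Measured directly against the maternal cross, the biparental median was -0.02, and against the paternal cross it was 0.07. Dhcr7 was at 75.0, 66.2 and 71.7 CPM in the paternal libraries, values that overlap the biparental ones, and at 73.4, 75.2 and 81.1 CPM in the maternal libraries, just above them.

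**Figure D1:**
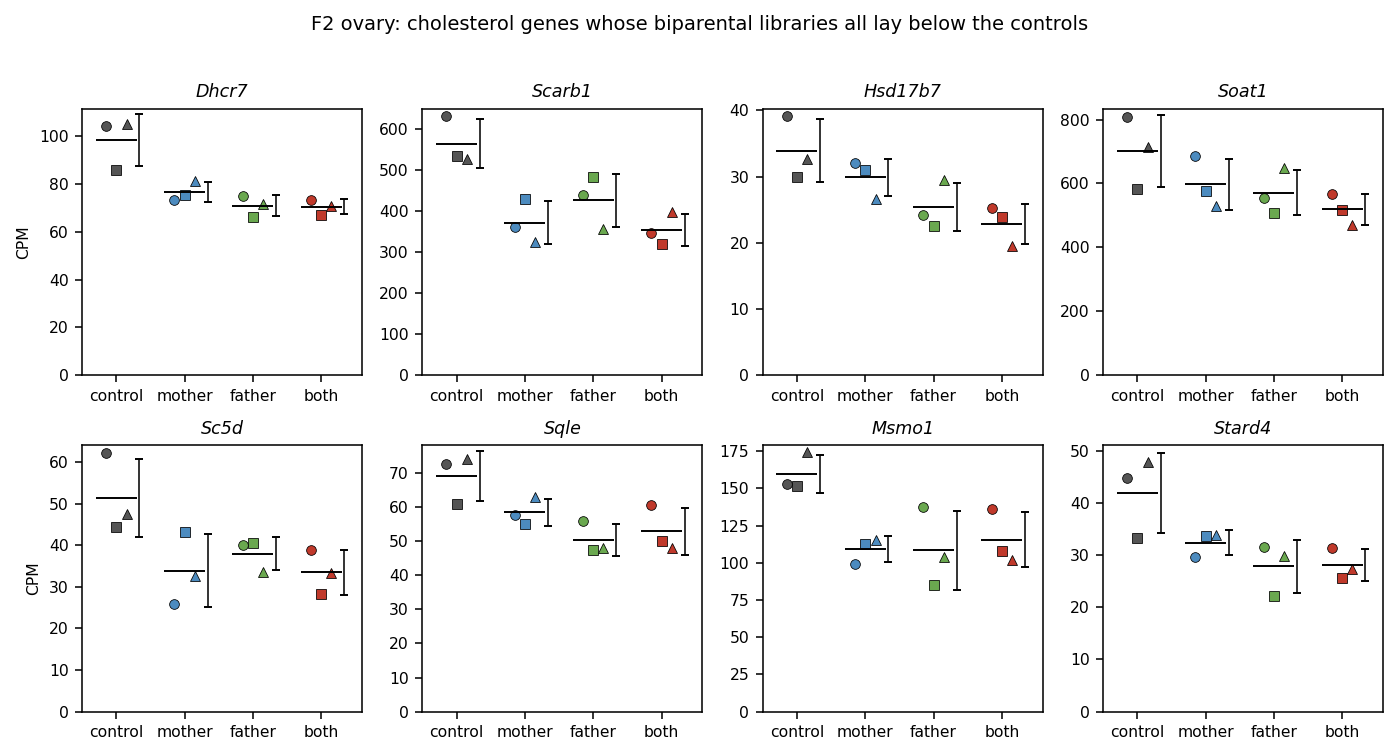
CPM (vertical axes, from 0) of the cholesterol genes named in the text whose biparental libraries all lay below the controls, in the control cross, the maternal ("mother"), paternal ("father") and biparental ("both") dose 2 crosses; symbols are libraries A (circle), B (square) and C (triangle), lines are means and bars SD. For Dhcr7 the biparental libraries span 67.0 to 73.2 CPM against 85.9 to 105 in controls, and the ranges of the biparental and single-parent crosses overlap in every panel except for the maternal cross in Dhcr7 and Hsd17b7.

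Since most members of this list lay to the same side of the controls, their promoters were read from the RefSeq table for build GRCm38.p6, which held 20 of the 31 genes. Of the 10 genes with separate ranges, 5 were in the table. CCAAT (either strand), the core of the box that nuclear factor Y binds beside SREBP in many sterol genes, was present in the 250 bases before the start of all 5, of 18 of the 20 list members, and of 10133 of the 27025 genes in the table (37.49%). The sterol regulatory element, searched as TCACNCCAC on both strands, was found in 1 of the 20, Hmgcs1, in 0 of the 5, and in 331 of the 27025 genes (1.225%). The 150 bases before the start are shown for the 4 genes with separate ranges and a single start in the table, with Hmgcs1 as the one member with the element; capitals mark CCAAT or its reverse complement and, in Hmgcs1, also the element.
Soat1 (chr1:156474329-156474478, minus strand): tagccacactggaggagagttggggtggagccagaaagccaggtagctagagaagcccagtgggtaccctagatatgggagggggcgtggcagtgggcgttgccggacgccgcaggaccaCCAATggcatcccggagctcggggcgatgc
Hsd17b7 (chr1:169969206-169969355, minus strand): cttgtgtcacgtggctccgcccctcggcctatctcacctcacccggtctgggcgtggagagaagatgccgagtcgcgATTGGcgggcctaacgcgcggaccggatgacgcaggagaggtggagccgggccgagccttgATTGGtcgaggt
Msmo1 (chr8:64733579-64733728, minus strand): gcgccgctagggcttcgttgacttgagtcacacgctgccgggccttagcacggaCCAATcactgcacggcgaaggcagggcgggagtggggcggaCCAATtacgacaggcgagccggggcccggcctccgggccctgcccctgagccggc
Sc5d (chr9:42264301-42264450, minus strand): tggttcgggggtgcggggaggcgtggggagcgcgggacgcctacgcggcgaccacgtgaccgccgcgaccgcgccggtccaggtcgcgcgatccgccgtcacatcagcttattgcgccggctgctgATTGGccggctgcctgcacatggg
Hmgcs1 (chr13:119690201-119690350, plus strand): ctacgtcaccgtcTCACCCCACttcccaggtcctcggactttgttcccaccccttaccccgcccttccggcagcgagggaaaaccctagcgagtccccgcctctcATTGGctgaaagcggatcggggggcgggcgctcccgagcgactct
Hmgcs1, an early enzyme of the pathway, was at 197, 266 and 266 CPM in controls and 196, 245 and 180.1 CPM in biparental libraries, ranges that overlap (log2 change -0.23 ± 0.25). A match to these letters is a description of the sequence only.

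Genes of the steroid synthesis list, which shares Scarb1 and Hsd17b7 with the cholesterol list, were split between directions. Of the 19 genes tested in that list 0 passed, 10 had a log2 change above 0 (54.8% of all genes) and 9 below, and the median was 0.05, or -0.13 without biparental C. All biparental libraries were higher for 2 of the 19 (7.94% of all genes) and lower for 3 (7.6%). Cyp17a1, the theca cell enzyme that makes androgen, was at 1367, 1054 and 1219.7 CPM in control libraries and 626, 360.2 and 767 CPM in biparental libraries. All biparental values lay below all controls, with a mean of 585 ± 207 CPM (SD, n = 3) against 1213 ± 157 and a log2 change of -1.05 ± 0.44 (unadjusted p = 0.0281 and adjusted p = 0.527, edgeR). Cyp17a1 was lower still in the maternal cross, at 245, 511 and 273 CPM, and spread widely in the paternal cross, at 676, 1411 and 345 CPM. Star, which moves cholesterol into mitochondria, was at 136, 52.9 and 71.1 against 49.8, 41.6 and 53.6 CPM, and the ranges overlapped (log2 change -0.84 ± 0.58). Fdx1, the electron donor of mitochondrial steroid enzymes, was at 305, 417 and 163 against 156, 100.0 and 233 CPM (log2 change -0.86 ± 0.38), also with overlap.

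Enzymes at other steps mostly had overlapping ranges. Hsd3b1, which makes progesterone and other ketosteroids, was at 3749, 4039 and 3811 CPM in controls and 4052, 4206 and 4029.6 CPM in biparental libraries (log2 change 0.08 ± 0.10). Cyp11a1, the side-chain cleavage enzyme, was at 1600.5, 2356 and 1986 against 1668, 1557 and 2151 CPM (log2 change -0.14 ± 0.22). Cyp19a1, the aromatase that makes estrogen, was high in 1 library of each cross: 41.4, 180.2 and 47.0 CPM in controls, led by B, and 56.0, 51.4 and 184 CPM in biparental libraries, led by C. Its log2 change of 0.12 ± 0.52 became -0.74 without biparental C. Nr5a1, a transcription factor of steroid-making cells, was at 475, 494 and 482 against 519.6, 538 and 503 CPM, higher in every biparental library by a small margin (log2 change 0.11 ± 0.10). Akr1c18, which inactivates progesterone, was at 0.472, 0.804 and 0.670 CPM in controls and 1.01, 1.21 and 24.4 CPM in biparental libraries, with no overlap. Its counts were 26, 42 and 57 and 42, 50 and 1042, and its log2 change of 3.77 ± 0.92 was 0.77 without library C.

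Hormone receptors mostly had overlapping ranges. In the list of gonadotropin and related receptors, 6 of 7 genes tested had a log2 change below 0 (45.2% of all genes) and 0 passed, with a median of -0.30. All biparental libraries were higher for 1 of the 7 (7.94% of all genes) and lower for 0 (7.6%), which is near the background. Lhcgr, the receptor for luteinizing hormone, was at 292, 436 and 169 CPM in controls and 129, 128 and 321 CPM in biparental libraries, where A and B lay below every control and C within their range. Its log2 change was -0.63 ± 0.46, and -1.22 without biparental C. Fshr, the receptor for follicle-stimulating hormone, was at 43.8, 66.3 and 66.6 against 45.3, 49.9 and 54.7 CPM (log2 change -0.24 ± 0.18). Esr1 and Esr2, the nuclear estrogen receptors, had log2 changes of -0.15 ± 0.14 and 0.08 ± 0.17. Pgr, the progesterone receptor, was at 3.97, 1.45 and 2.12 against 1.63, 1.43 and 2.11 CPM (log2 change -0.54 ± 0.36). Ghr, the growth hormone receptor, was the member with all biparental libraries higher, at 49.2, 40.5 and 38.6 against 59.4, 52.9 and 58.3 CPM, and Igf1r, the receptor for insulin-like growth factor 1, had a log2 change of -0.48 ± 0.17 with overlap at 1 control library.

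Prostaglandin synthases, the targets of ibuprofen and diclofenac, were low in this tissue. Ptgs1 was at 3.74, 4.48 and 4.35 CPM in controls and 3.24, 4.02 and 5.86 CPM in biparental libraries, a log2 change of 0.06 ± 0.23. Ptgs2, which the ovulatory signal induces, had counts of 9, 15 and 10 and 5, 5 and 62, so that library C set its log2 change of 1.60 ± 0.86 and the value without it was -0.61. In the prostaglandin list 0 of 23 genes passed and 14 were above 0, with a median of 0.06; without biparental C 9 were above 0 and the median was -0.08. In the list of estrogen receptors and estrogen-responsive genes 0 of 21 passed and 9 were above 0, with a median of -0.04; without biparental C 6 were above 0 and the median was -0.13.

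**Figure D2:**
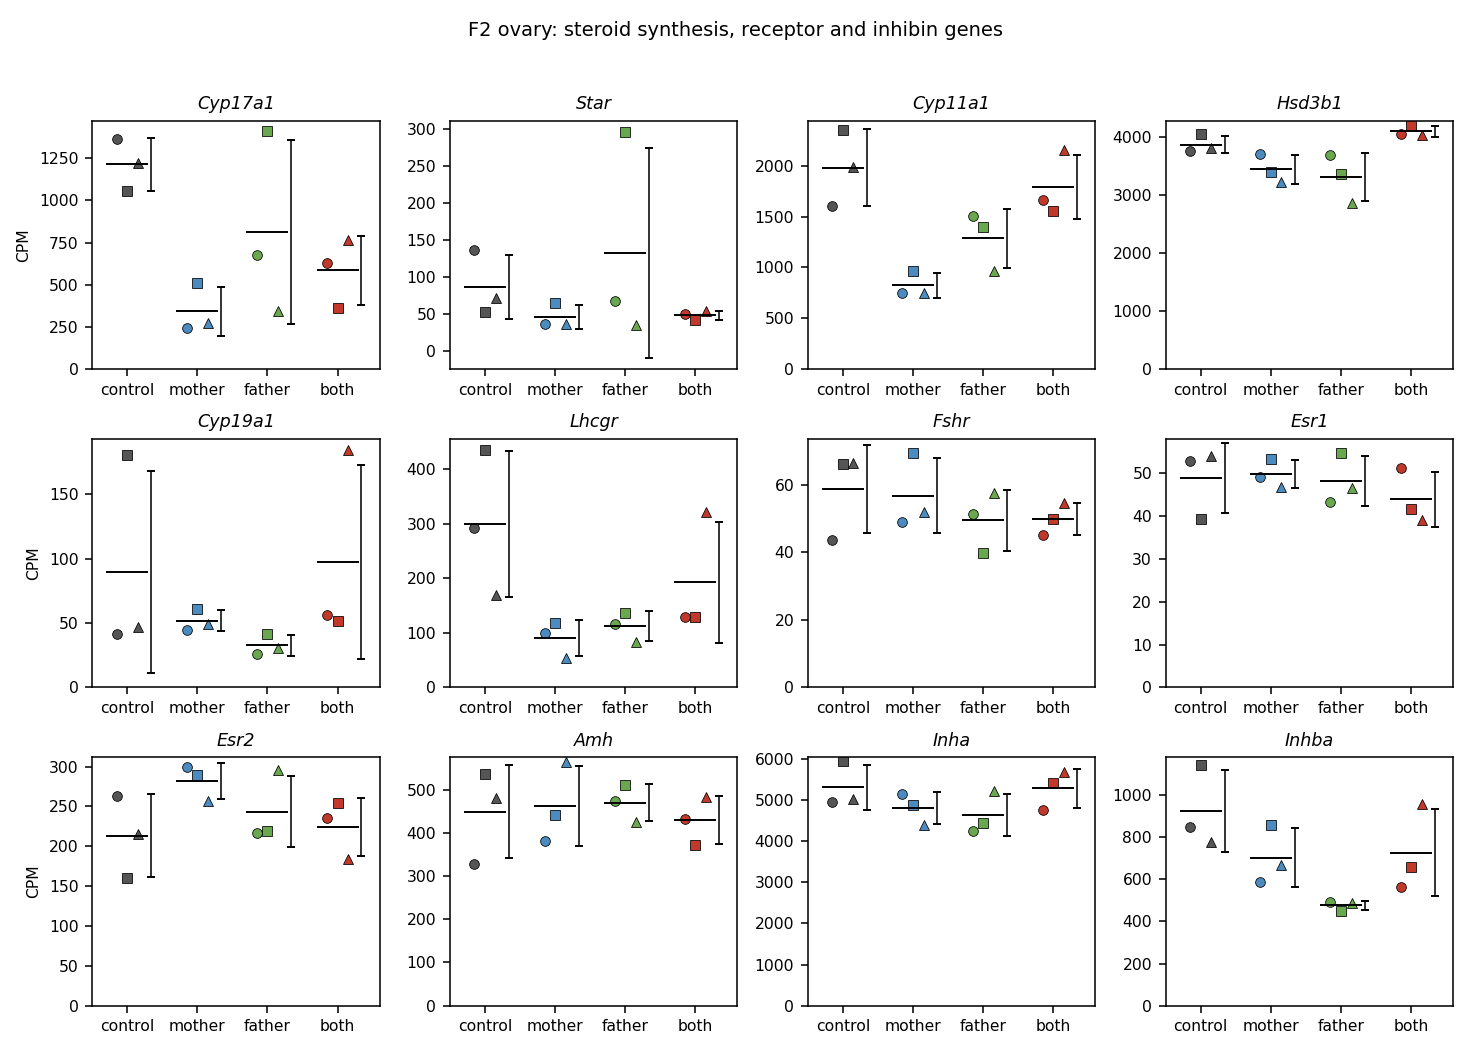
CPM of 12 steroid synthesis, receptor and inhibin genes in the control, maternal ("mother"), paternal ("father") and biparental ("both") dose 2 crosses; symbols are libraries A (circle), B (square) and C (triangle), lines are means and bars SD, and an SD bar may reach below 0. Cyp17a1 is the panel in which all 3 biparental libraries lie below the controls, while Hsd3b1 stays between 3749 and 4206 CPM in both crosses.

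Granulosa hormones had overlapping ranges, while several receptors and signal carriers of the BMP and TGF-beta family were lower in all 3 biparental libraries. Amh, anti-Müllerian hormone, was at 329, 538 and 481 CPM in controls and 432, 373 and 484 CPM in biparental libraries (log2 change -0.06 ± 0.23), and the log2 change of Inha was -0.01 ± 0.15. Inhba, the activin beta A subunit, was at 849, 1146 and 777 against 564, 659 and 958 CPM (log2 change -0.35 ± 0.43), with library C in the control range. Of the 40 genes of the inhibin, activin, AMH and BMP list 0 passed, 25 were below 0, and 10 had all biparental libraries lower (7.6% of all genes) against 1 higher. The median of the list was -0.10, and -0.12 without biparental C.

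The 10 genes were 1 ligand, 5 receptors and 4 Smads, the proteins that carry the signal to the nucleus. Bmp2, the ligand, was at 101, 61.5 and 58.1 CPM in controls and 39.8, 50.4 and 31.2 CPM in biparental libraries, a log2 change of -0.87 ± 0.29 (unadjusted p = 0.00812 and adjusted p = 0.48, edgeR). Control A was well above the other controls. Tgfbr1, a type I receptor for TGF-beta, was at 189, 128 and 139.8 against 101, 86.7 and 95.97 CPM (log2 change -0.68 ± 0.29). Acvr1, a type I receptor used by BMPs and AMH, was the most even of the receptors, at 41.8, 36.5 and 40.4 against 32.5, 30.0 and 28.9 CPM (log2 change -0.38 ± 0.13). Bmpr2, the type II BMP receptor, was at 494, 336 and 358 against 286, 321 and 268 CPM (log2 change -0.44 ± 0.33, unadjusted p = 0.2, edgeR). The remaining receptors, Bmpr1a and Bmpr1b, had log2 changes of -0.37 and -0.45 (unadjusted p = 0.137 and 0.0615, edgeR). Smad2, Smad3, Smad4 and Smad5 had -0.18, -0.28, -0.27 and -0.18 (unadjusted p = 0.129, 0.104, 0.0304 and 0.113, edgeR). Grem1, a secreted BMP antagonist, had a log2 change of -1.09 ± 0.42, but control C at 10.9 CPM lay within the biparental values of 12.8, 10.6 and 13.7 CPM. The higher gene was Tgfb2, at 13.1, 14.4 and 12.2 against 15.1, 17.5 and 32.5 CPM, whose log2 change of 0.71 ± 0.23 was 0.30 without biparental C.

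Genes of the maternal effect and the zona pellucida lists were mostly on the higher side in the biparental cross, with overlapping ranges for most of them. Of 30 maternal effect genes, whose transcripts the oocyte stores for the embryo, 29 had a log2 change above 0 (54.8% of all genes), with a median of 0.31, but only 1 had all biparental libraries higher (7.94% of all genes) and 0 passed. Of 19 genes for the zona pellucida and oocyte growth factors 18 were above 0, with a median of 0.32, 2 with separate ranges. Without biparental C the medians were 0.40 and 0.44. Another list, of oocyte and germ cell transcription factors, was nearer the background. Of its 18 genes tested 0 passed and 11 were above 0, with a median of 0.05, or 0.14 without biparental C. In that list 0 genes had all biparental libraries higher and 2 had all lower (7.6% of all genes). The summed level of the maternal effect genes (lowest, median and highest) was 1536, 1771 and 2378 CPM in controls and 2006, 2285 and 2519 CPM in biparental libraries, so the highest control lay inside the biparental range. Against the same 3 control libraries, the median of the maternal effect genes was 0.34 in the maternal dose 2 cross (1 of 30 below 0) and 0.20 in the paternal one (0 of 30), comparisons that share those controls. Measured directly, the biparental median was 0.0011 against the maternal cross and 0.12 against the paternal cross.

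The single maternal effect gene with separate ranges was Tle6, part of the complex beneath the oocyte membrane that the first cleavages need. It was at 71.1, 109 and 96.4 CPM in controls and 137, 150.5 and 116 CPM in biparental libraries, a log2 change of 0.55 ± 0.20 (unadjusted p = 0.0155 and adjusted p = 0.491, edgeR). Zfp57, which protects imprinted methylation, was at 49.8, 75.3 and 63.6 against 84.6, 89.4 and 74.1 CPM (log2 change 0.39 ± 0.14). Npm2, an oocyte histone chaperone, was at 23.8, 44.0 and 29.2 against 49.4, 48.5 and 38.0 CPM (log2 change 0.49 ± 0.23). In all of these control A was the lowest library and control B the highest control. Gdf9 and Bmp15, the growth factors by which the oocyte acts on granulosa cells, were at 118, 224 and 146 against 201, 260.2 and 186 CPM and at 34.6, 50.8 and 36.9 against 53.6, 54.2 and 38.3 CPM. Their log2 changes were 0.41 ± 0.23 and 0.26 ± 0.18, with overlap. Fgf8, another oocyte growth factor, had separate ranges, 1.20, 1.66 and 1.317 against 1.73, 3.22 and 1.78 CPM (log2 change 0.69 ± 0.33). Zp3 had a log2 change of 0.27 ± 0.25, and Kit, the receptor for stem cell factor on oocytes and theca cells, -0.19 ± 0.19. Majin, which ties telomeres to the nuclear envelope in meiosis, was under 1 CPM in every library of the 2 crosses. Its counts of 17, 9 and 22 in controls and 28, 32 and 20 in biparental libraries overlapped. Scaled for depth, the levels of 0.308, 0.172 and 0.259 against 0.672, 0.776 and 0.469 CPM did not (log2 change 1.36 ± 0.34).

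Heat shock chaperones, which refold proteins and are induced by stress, mostly had lower levels. Of 21 genes tested 0 passed, 19 were below 0 (45.2% of all genes) and 4 had all biparental libraries lower (7.6%), with a median of -0.21 and the same median, -0.21, without biparental C. Hspa1a, an inducible 70 kDa-class chaperone, was at 34.9, 60.9 and 52.4 CPM in controls and 31.1, 16.9 and 15.7 CPM in biparental libraries, a log2 change of -1.22 ± 0.38 (unadjusted p = 0.00529 and adjusted p = 0.48, edgeR). Its near-identical neighbour Hspa1b was at 43.2, 108 and 84.4 against 45.9, 25.5 and 31.9 CPM, and reads of the pair may be shared between them. Dnajb1, a co-chaperone, was at 110.1, 142 and 115 against 88.6, 76.3 and 74.9 CPM with no overlap (log2 change -0.61 ± 0.16). Hsph1 was at 273, 407 and 410.5 against 304, 173 and 162 CPM, where biparental A reached the control range. In the list of genes of the luteinizing hormone surge and ovulation, which holds Adamts1, 0 of 29 passed and 14 were above 0 (54.8% of all genes), with a median of -0.04. All biparental libraries were lower for 5 of the 29 (7.6% of all genes) and higher for 2 (7.94%). Without biparental C 9 were above 0 and the median was -0.19.

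Marker genes of the oviduct, the tube that adjoins the ovary, mostly had higher levels in the biparental cross. Of 21 tested 0 passed, 18 were above 0 (54.8% of all genes) and 9 had all biparental libraries higher (7.94%), with a median of 0.96 and of 0.89 without biparental C. Their summed level (lowest, median and highest) was 66.4, 70.1 and 82.0 CPM in controls and 82.9, 103 and 121 CPM in biparental libraries, which did not overlap but nearly touched. In 1 control library 1 marker was at 0, and none was in the other control libraries or in the biparental ones. The maternal and paternal crosses lay at 82.5, 82.7 and 86.4 and 81.5, 81.6 and 92.8 CPM. Ovgp1, the oviduct-specific glycoprotein, was at 4.93, 3.96 and 3.99 CPM in controls and 11.8, 5.67 and 8.20 CPM in biparental libraries (log2 change 1.00 ± 0.43). Foxj1, the regulator of motile cilia, was at 0.399, 0.727 and 0.976 against 2.71, 1.09 and 1.83 CPM (log2 change 1.40 ± 0.63), with library A the highest. Rsph1, a ciliary protein, was at 1.58, 2.24 and 1.89 against 4.85, 3.95 and 2.86 CPM (log2 change 1.03 ± 0.30). Sntn, a protein of cilia tips, had counts of 0, 5 and 4 in controls and 23, 5 and 9 in biparental libraries, and is the marker at 0 in control A. The equal counts of control B and biparental B became 0.0957 and 0.121 CPM, so Sntn is among the 9 genes by scaling alone. Sntn was also at 0 in every maternal library and in paternal library B. Cd24a, a surface protein of epithelial cells, was at 15.9, 19.2 and 16.8 against 27.5, 20.3 and 36.3 CPM (log2 change 0.70 ± 0.16, edgeR adjusted p = 0.462, DESeq2 adjusted p = 0.0494). Wfdc2 is in this list too. It was highest in biparental library C, as were Cd24a and, outside the list, Aqp8, while Ovgp1, Foxj1, Rsph1 and Sntn were highest in A. In the maternal cross Wfdc2 was highest in library C and Aqp8 in B. The part of oviduct tissue in any other result was not tested.

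Markers of fat varied from library to library. Of 18 adipocyte markers tested 15 were above 0, with a median of 0.67, 0 had all biparental libraries higher (7.94% of all genes) and 2 had all lower (7.6%), which is near the background. Without biparental C the median was 0.45. Adipoq, the adipocyte hormone adiponectin, had counts of 9, 12 and 29 in controls and 96, 5 and 90 in biparental libraries, so libraries A and C held it and B did not exceed the controls. Cfd, another secreted adipocyte protein, showed the same pattern, at 0.762, 1.45 and 0.659 against 6.79, 0.606 and 8.84 CPM. The 2 genes with all biparental libraries lower, Pparg and Plin1, are expressed in ovarian cells as well: Pparg, a fatty acid receptor of granulosa cells, was at 75.1, 81.5 and 63.40 against 63.35, 54.8 and 43.2 CPM, ranges that all but touch (log2 change -0.45 ± 0.16), and Plin1, which coats lipid droplets, at 59.1, 40.0 and 50.6 against 37.0, 38.2 and 38.7 CPM (log2 change -0.40 ± 0.16).

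Immune genes set biparental library C apart from all other libraries, while biparental A and B mostly lay on the lower side of the controls. The summed level of 20 lymphocyte and natural killer cell markers (lowest, median and highest) was 21.6, 28.6 and 182 CPM in the biparental libraries, of which C was the highest, and 27.1, 35.0 and 52.2 CPM in controls. That of 10 MHC class II genes, which present antigen, was 122, 194 and 2197 against 266, 432 and 460.3 CPM, and that of 21 macrophage markers 369, 412 and 1131 against 408, 521 and 559.9 CPM. Of the 346 genes that stood apart in library C, 15 were among the 20 lymphocyte markers, 9 among the 10 class II genes and 5 among the 21 macrophage markers, where 1.99% of all genes tested stood apart. The list medians turned with this library: from 1.45 to -0.73 for lymphocytes, from 1.16 to -1.16 for class II genes and from 0.28 to -0.32 for macrophages. Without it 18 of 20, 10 of 10 and 19 of 21 genes were below 0. Biparental A and B were both below all controls for 7, 6 and 5 of them. The share of all genes that did so without C was not calculated.

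Single genes show the size of that departure. Cd74, the class II chaperone, was at 206, 130.4 and 213 CPM in controls and 82.0, 54.6 and 1049 CPM in biparental libraries. Biparental A and B were below every control and C was over 4 times the highest, so its log2 change of 1.11 ± 0.74 became -1.42 without C. Jchain, which joins antibody units in plasma cells, was at 0.453, 0.727 and 1.05 against 5.33, 0.485 and 147 CPM. Marco, a macrophage scavenger receptor, was at 0.544, 0.899 and 0.788 against 1.34, 0.679 and 44.5 CPM, and Saa3, an acute-phase protein, at 1.31, 1.38 and 1.42 against 3.31, 0.727 and 114 CPM. C3, the central complement protein and an estrogen-responsive gene of the uterus, was at 30.5, 31.8 and 90.4 against 38.9, 24.1 and 975 CPM. Cd79a, a part of the B cell receptor, was at 0.599, 0.823 and 0.953 against 1.06, 0.485 and 13.1 CPM. Ranges overlapped for all 6 genes.

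**Figure D3:**
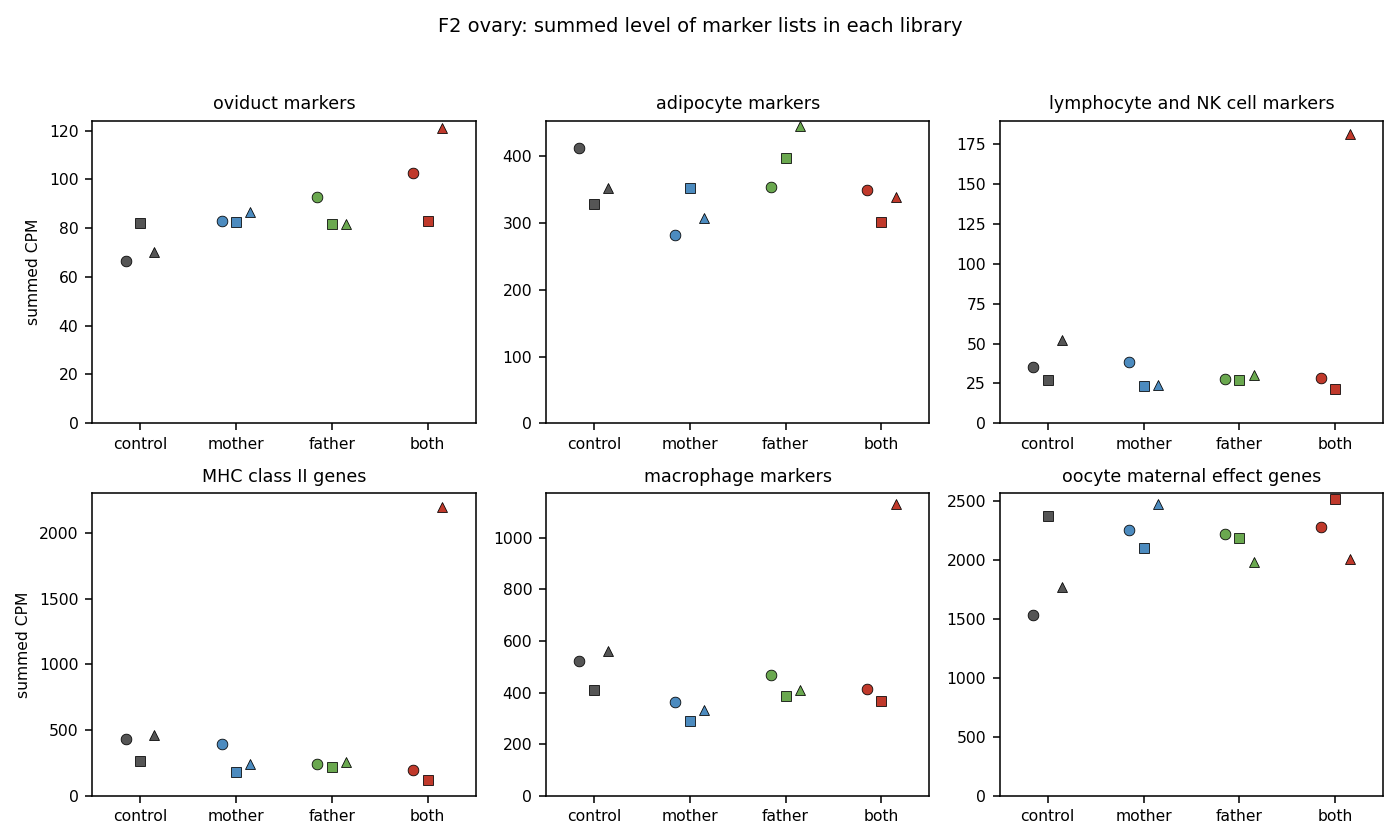
Summed CPM (vertical axes, from 0) of 5 lists that mark other cells and of the oocyte maternal effect genes in each library of the control, maternal ("mother"), paternal ("father") and biparental ("both") crosses; symbols are libraries A (circle), B (square) and C (triangle). Biparental C stands alone in the lymphocyte, class II and macrophage panels, for example at 2197 CPM of class II genes against 460 CPM in the highest control, and the oviduct panel shows biparental libraries at 82.9 to 121 CPM above controls at 66.4 to 82.0 CPM.

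**Figure D4:**
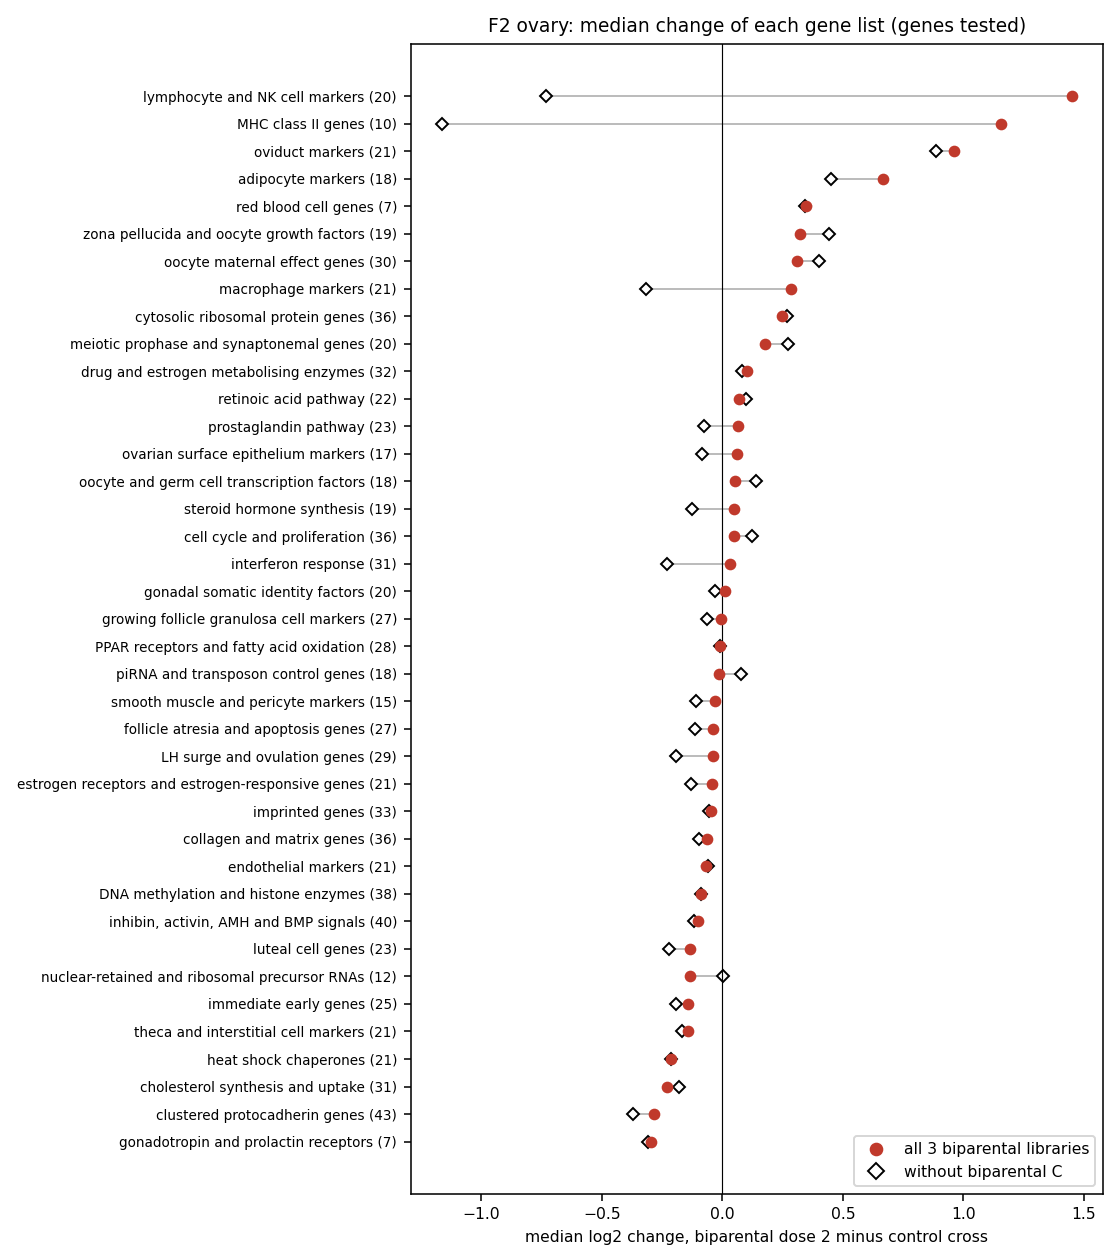
Median log2 change (horizontal axis) between the biparental and the control cross for each of the 39 gene lists, with the number of genes tested in brackets; red circles use all 3 biparental libraries and open diamonds leave out biparental C. The symbols lie on opposite sides of 0 for 10 lists, farthest apart for the lymphocyte, class II and macrophage lists and by smaller steps for others such as interferon response (0.03 and -0.23) and steroid hormone synthesis (0.05 and -0.13), while the cholesterol list (-0.23 and -0.18), the heat shock list and the oviduct list keep their side.

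The biparental cross was next tested directly against each cross with a single dose 2 parent. Against the maternal dose 2 cross 0 of 17400 genes (0%) passed the edgeR test, with a lowest adjusted p of 0.372 and 2068 genes at an unadjusted p below 0.05. Against the paternal dose 2 cross 0 genes (0%) passed, with a lowest adjusted p of 0.564 and 883 genes at an unadjusted p below 0.05. Whether the biparental change differed from the sum of the maternal and the paternal change was tested with an interaction term, and again 0 genes (0%) passed, with a lowest adjusted p of 0.174 and 1234 genes at an unadjusted p below 0.05. Tested with DESeq2, the same comparisons called 33, 14 and 27 of 17400 genes, of which 28, 14 and 20 had a log2 value above 0. The part of biparental library C in these calls was not tested.

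Values of the leading genes in those crosses show which sat apart from a single-parent cross. Aqp8 was at 2.74, 7.16 and 3.10 CPM in the maternal libraries and 2.17, 3.36 and 2.31 CPM in the paternal ones, so maternal B lay in the biparental range and the paternal libraries below it. Arhgap8 had the same pattern, at 1.323, 4.66 and 1.25 and 0.979, 1.37 and 1.55 CPM. Adamts1 was at 36.8, 44.1 and 37.1 and 46.2, 34.6 and 40.2 CPM, below every control library in both crosses. Sec23a, at 92.8, 103 and 83.5 CPM in the maternal libraries, was above every biparental value, and its log2 difference between the biparental and maternal crosses was -0.45 ± 0.13. Cyp11a1 was at 752, 968 and 748 CPM in the maternal libraries, all below the biparental ones, a log2 difference of 1.12 ± 0.23 (edgeR adjusted p = 0.372).

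The F1 generation gives a comparison that shares no library with the F2 one: ovaries of F1 females whose mothers and who themselves drank dose 2 water, against F1 controls, 3 libraries each. There 0 of 17896 genes passed the edgeR test, with a lowest adjusted p of 0.185 and 671 genes at an unadjusted p below 0.05. The difference between the F2 biparental change and the F1 change was tested over the 27 ovary libraries, and 0 of 18334 genes (0%) passed, with a lowest adjusted p of 0.811 and 1118 genes at an unadjusted p below 0.05; DESeq2 called 0. Aqp8 had a log2 change of -0.08 in F1, Adamts1 -0.09 and Dhcr7 0.16. Bmpr2 was lower in F1 too, with a log2 change of -0.50 ± 0.06 and the lowest adjusted p there (0.185, edgeR). Bmpr1b had -0.36 ± 0.10, while Acvr1 had -0.05 and Bmpr1a -0.03. In the whole inhibin, activin, AMH and BMP list 17 of 40 genes were above 0 in F1, with a median of -0.03. In the cholesterol list 26 of 31 genes were above 0 in F1, with a median of 0.11, but without F1 dose 2 library A, 16 of 31 were above 0 and the median was 0.0021. Sc5d, for example, was at 74.5, 32.4 and 32.2 CPM in the F1 dose 2 libraries and 35.6, 31.6 and 36.8 CPM in F1 controls. In the heat shock list 19 of 21 were below 0 in F1, with a median of -0.15, and 17 of 21 without that library, again with a median of -0.15. Of the 30 maternal effect genes 9 were above 0 in F1, with a median of -0.05, and 17 without that library, with a median of 0.02. With each of the 6 F1 libraries left out in turn, the medians ran from 0.0021 to 0.23 for the cholesterol list, from -0.22 to -0.080 for heat shock and from -0.12 to 0.02 for maternal effect genes. F1 library values are scaled within the F1 fit, and steroid genes varied widely there: Cyp17a1 was at 389, 201 and 906 CPM in F1 controls and 1439, 262 and 207 CPM at dose 2.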

How the data were processed

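The deposited table holds raw read counts per gene for 26264 genes in the 27 ovary libraries (a second deposited table of counts covers testis); the authors did not normalize them, and 0 columns were left unmapped. Among the tools in the submitters' processing notes are featureCounts 2.0.3, TopHat2 2.1.1 and Bowtie2 2.4.5, with build mm39. Annotation and strand setting: not given in the sources used here. Levels of paralogs, pseudogenes and overlapping genes are therefore uncertain.

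Counts were fitted with edgeR 4.0.16 (R 4.3.3): 18 F2 ovary libraries, group means, TMM factors, filterByExpr at a minimum count of 10, quasi-likelihood F tests and Benjamini-Hochberg adjustment at 0.05. The F1 comparison used the 9 F1 ovary libraries, and the difference between generations all 27. Chi-square tests of replicate pairs in the 2 crosses found no duplicated library. CPM are counts scaled to a common library total with the TMM factors; the depth of each library is in the text above.

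Named genes were up to 12 passing genes in each direction (there were none), list members that passed, 19 fixed hormone and oocyte genes and, since fewer than 5 passed, the 6 lowest p in each direction among genes averaging 1 CPM or more in the cross where they were higher; 61 further genes were named after their values were seen. Some genes are not reported here. The comparison, the 39 gene lists and these rules were chosen with earlier results of these data known, so list counts are descriptions. Deviations of same-letter control and biparental libraries from their group means correlated at 0.135 (A), 0.114 (B) and 0.211 (C) over 17400 genes, so the letters were treated as pairs in a blocked alternative. Other alternatives were RLE factors, no filter, DESeq2 1.42.0, only the libraries compared, all ovary libraries, and leaving out each library; fits without libraries that stand apart, F1 list values with each library left out and a test against testis were added after the data were examined. The procedure was tested on simulated data. Promoters were read from RefSeq (GRCm38.p6).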

Additional observations from a re-analysis of the deposited data

Results flagged for a closer look

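The change between the biparental and the control cross was compared between ovary and testis in 1 fit of the 36 F2 libraries of both tissues, a comparison added after the data were examined. The testes came from males and were taken at a later age than the ovaries. Tissue, sex and age therefore differ together in this comparison, and their separate parts were not tested. For 2 of 20583 genes the ovary change differed from the testis change at an edgeR adjusted p of 0.0165. Rn45s, the precursor of ribosomal RNA, was at 362, 554 and 365 CPM in the biparental ovary libraries against 300.4, 322 and 268 CPM in the control ones, and in testis at 147, 163 and 152 CPM against 302, 266 and 275 CPM. It lay above its controls in 3 of 3 ovary libraries and below them in 3 of 3 testis libraries, with log2 changes of 0.53 ± 0.16 and -0.87 ± 0.17 (± standard error) and a difference of 1.40. Messenger RNA selection removes most of this transcript. The uncharacterized 5830418P13Rik was at 0.650, 0.634 and 0.936 CPM in biparental ovaries against 0.297, 0.333 and 0.245 CPM, and in testis at 0.504, 0.269 and 0.478 CPM against 1.21, 1.30 and 1.07 CPM, a difference of 2.85 in log2 change. When each of the 12 libraries compared was left out in turn, Rn45s passed in 7 of 12 fits (adjusted p 0.0101 to 0.102, difference 1.17 to 1.502) and 5830418P13Rik in 8 of 12 (adjusted p 0.00912 to 0.0782, difference 2.62 to 3.01). The parts of RNA selection and of library quality in these differences were not tested.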

How the results depend on the processing

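For the biparental against the control cross 0 genes passed under every edgeR alternative: RLE factors, no filter, the replicate block (0 genes), the 6 libraries alone, all 27 ovary libraries, each of the 6 libraries left out (0 to 0), and without maternal dose 1 C or without it and biparental dose 2 C, which stand apart. RLE moved the median log2 change of all genes by -0.01. DESeq2 called 23 genes there, 33 against the maternal cross, 14 against the paternal cross and 27 for the departure from the sum; 0 passed in these under the other edgeR fits, the replicate block among them, apart from left-out libraries. With 1 library left out the counts ran from 0 to 1 against the maternal cross and for the departure from the sum (1 without biparental A), 0 to 0 against the paternal cross and 0 to 1 for the F2 minus F1 change (Sfrp1, without F2 control B). For ovary minus testis the 2 genes became 4 with RLE factors, 72 with DESeq2, and 0 to 18 with 1 library left out, 18 without ovary biparental A and 0 without ovary control A, testis control A, testis biparental B or testis biparental C; 5830418P13Rik was the 1 gene without testis biparental A. The cause was not tested. Of the named genes' values, 17 passed with DESeq2 only, and 7 turned without both libraries that stand apart: Cyp19a1 (-0.74), Ptgs1 (-0.21), Ptgs2 (-0.61), Cd79a (-0.047), Cd74 (-1.42), C3 (-0.70) and Prap1 (-0.30). With 1 library left out, log2 changes ran from -0.74 to 1.134 for Cyp19a1, -0.095 to 0.25 for Esr2, -0.25 to 0.085 for Amh, -0.062 to 0.083 for Inha, -0.21 to 0.23 for Ptgs1, -0.61 to 2.07 for Ptgs2, -0.044 to 3.14 for Cd79a, -1.42 to 1.62 for Cd74, -0.69 to 3.47 for C3 and -0.30 to 7.80 for Prap1; other named genes kept their sign. Library totals ran from 40.7 to 84.7 M counts, and the part of depth in these results was not tested.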

Other observations

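Retinoic acid genes, which control entry into meiosis and follicle growth, included 4 of 22 tested with all biparental libraries higher (7.94% of all genes) and 1 with all lower, and 0 passed; these genes were chosen after their values were seen. Aldh1a1, an enzyme that makes retinoic acid, was at 334, 673 and 671 CPM in controls A, B and C and at 869, 846 and 739 CPM in biparental libraries, a log2 change of 0.55 ± 0.25 (edgeR adjusted p = 0.548). Dhrs3, which turns retinaldehyde back into retinol, was at 97.6, 122 and 121 CPM against 136, 142 and 145 CPM (log2 change 0.32 ± 0.13). In both genes control A was the lowest library. Of 32 drug and estrogen metabolising genes tested 0 passed and 22 were above 0 (54.8% of all genes), with 3 having all biparental libraries higher (7.94%) and 1 all lower (7.6%) and a median of 0.10. The lower gene, Ahr, the receptor for dioxin-like compounds, was at 28.9, 22.9 and 25.0 CPM in controls and 16.4, 20.1 and 18.6 CPM in biparental libraries (log2 change -0.48 ± 0.18). Gsta3, a glutathione transferase, was at 5.53, 5.78 and 5.06 against 6.36, 8.07 and 11.02 CPM, and its log2 change of 0.64 ± 0.19 was 0.40 without biparental C.

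All 36 cytosolic ribosomal protein genes tested had a log2 change above 0 (54.8% of all genes), with a median of 0.25, and 0 of them had separate ranges. Their summed level (lowest, median and highest) was 21706, 26503 and 35410.4 CPM in controls and 31544, 32286 and 33888 CPM in biparental libraries, so the biparental values lay inside the wide range of the controls. Theca and interstitial cell markers had 6 of 21 genes above 0 with a median of -0.14, and markers of growing granulosa cells 13 of 27 with a median of -0.01.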
